A study of Homo sapiens with 2 samples.

Results

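The genes described here are the 2 subunits of ferritin and 8 genes of iron uptake, release, export and control, in cells labelled as DU145, a human prostate cancer line of epithelial origin. The 10 symbols (FTH1, FTL, TFRC, NCOA4, ACO1, IREB2, SLC40A1, SLC11A2, STEAP3 and HFE) were looked up by name, and all 10 were among the 17249 rows of the deposited count table. Of these, 9 reached 1 CPM (counts scaled to the size of the library) in at least 1 library, as did 13532 genes in all. SLC40A1 did not.

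Poly(A)-selected RNA was sequenced from 2 libraries, 1 per group. The library labelled si-P53RRA came from DU145 cells given 200 pmol of a small interfering RNA that targets the long noncoding RNA P53RRA, with new medium after 4 h and a further 48 h of culture. The library labelled control came from cells given only as DU145, and the name of its column in the count table refers to a negative control. The series title concerns ferroptosis, a death by iron-dependent lipid peroxidation, which is why iron genes bear on it. "Higher" and "lower" compare the library labelled si-P53RRA with the library labelled control. There were no replicates, so there was no test between conditions, and each 95% interval in parentheses covers counting error only.

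Cells take up iron as transferrin bound to its receptor, reduce it in the endosome and carry it into the cytosol. There it is used, stored inside the ferritin shell or exported. Iron regulatory proteins bind a short RNA hairpin, the iron-responsive element, when iron is scarce: bound near the start of ferritin and ferroportin mRNAs they block translation, and bound in the tail of transferrin receptor mRNA they protect it from decay. RNA counts record mRNA amounts and not the translation that this control acts on.

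The hairpins found are shown because their place in the mRNA goes with the known direction of that control. The letters searched were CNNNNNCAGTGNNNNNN on the transcript strand, with the 5 bases on each side of the CAGTGN loop able to pair (G with T allowed), in the GENCODE 29 protein-coding transcripts of the 10 genes. Among the 19669 genes with a protein-coding transcript, 260 (1.32%) held such a match in their longest one. A match is a description of letters and not a shown binding site. Of the 10 genes, FTH1, FTL, SLC40A1 and TFRC held matches, and TFRC held 4 of them. The search required all 5 pairs, so it misses hairpins with a mismatch or another loop. The lack of a match, as for SLC11A2, therefore does not place a gene outside this control. Each sequence is a window of 30 bases of the transcript, 5′ to 3′, with the 6 loop bases in capitals.
FTH1 5′ UTR, GRCh38 chr11:61967573-61967602, minus strand: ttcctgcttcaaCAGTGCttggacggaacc
FTL 5′ UTR, GRCh38 chr19:48965335-48965364, plus strand: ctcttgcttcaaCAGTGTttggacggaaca
SLC40A1 5′ UTR, GRCh38 chr2:189580660-189580689, minus strand: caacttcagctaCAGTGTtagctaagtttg
TFRC 3′ UTR, GRCh38 chr3:196050978-196051007, minus strand: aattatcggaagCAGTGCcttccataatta
TFRC 3′ UTR, GRCh38 chr3:196050574-196050603, minus strand: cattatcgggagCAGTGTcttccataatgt
TFRC 3′ UTR, GRCh38 chr3:196050509-196050538, minus strand: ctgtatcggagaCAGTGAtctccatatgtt
TFRC 3′ UTR, GRCh38 chr3:196050462-196050491, minus strand: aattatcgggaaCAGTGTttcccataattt
The FTH1 and FTL windows had the same base at 26 of 30 positions. The ferritin and ferroportin matches lay before the coding sequence and the TFRC matches after it. The counts were made on hg19, so these GRCh38 positions place the hairpins only.

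The libraries stood far apart from each other. They held 16030207 counts (control) and 11942362 counts (si-P53RRA) over 16042 and 15174 detected genes. LINC00472, the gene of P53RRA, had 105 and 6 counts, 11.9-fold lower (5.29 to 33.2). Differences of 2-fold or more were common: 19.7% of the 13532 genes were higher by this much and 23.2% were lower. The prostate homeobox gene HOXB13 had 0 and 10004 counts, and the alpha-catenin gene CTNNA1 had 5835 and 0. Of 10 epithelial marker genes, 4 reached 1 CPM in the library labelled control and 7 in the other, with summed levels of 393.0 and 2001 CPM. Of the 7 that reached 1 CPM in a library, 6 were at least 2-fold higher and 0 lower. The log2 change was largest for KRT19, with 8 and 7052 counts, CLDN4, with 37 and 4737, and ESRP2, with 5 and 774. The epithelial gene EPCAM had 0 and 50 counts, GRHL2 had 0 and 6, and the epithelial cadherin CDH1 had 2 and 7. GRHL2 and CDH1 were under 1 CPM in both libraries. The keratin genes KRT18 and KRT8 made up most of the sum in the library labelled control, at 350 and 38.7 CPM. In the other library they were at 710 and 181 CPM, and KRT19 and CLDN4 were at 618 and 415 CPM. Of 12 fibroblast and mesenchymal genes, 12 and 6 reached 1 CPM, with summed levels of 14444 and 1510 CPM. VIM, at 2082 and 1291 CPM, made up most of the second sum, and COL1A2, at 1803 and 203 CPM, most of the rest. DCN, THY1, MMP2 and FAP had 0 counts in the library labelled si-P53RRA. With differences this wide, the libraries may not hold the same cell line, against their labels. A difference in cell line or population and an effect of the small interfering RNA cannot be told apart in any value below, and the part of these markers in the iron gene differences was not tested.

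The ferritin subunits differed in opposite directions. FTH1 encodes the heavy chain, which oxidises ferrous iron, and had 63307 counts in the library labelled control and 76839 in the library labelled si-P53RRA. These are 3773 CPM (3743 to 3802) and 6735 CPM (6688 to 6783), 1.79-fold higher (1.77 to 1.80). FTL encodes the light chain, which helps the mineral core to form, and had 72159 and 12139 counts. These are 4300 CPM (4269 to 4332) and 1064 CPM (1045 to 1083), 4.04-fold lower (3.96 to 4.12). In a bulk sample, fewer cells of a type and less RNA per cell cannot be told apart.

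FTL was the 8th and FTH1 the 11th most counted gene in the library labelled control. In the library labelled si-P53RRA, FTH1 was the 2nd and FTL the 109th. The FTH1 log2 change of 0.84 was reached or passed by 22.8% of all genes tested, and the FTL log2 change of −2.01 was reached or passed in its direction by 10.2%. Among the 150 genes that reached 1000 CPM in a library, a set chosen after the values were seen, 11 were lower by as much as FTL (7.33%) and 49 higher by as much as FTH1 (32.7%). Differences of either size were therefore found for other abundant genes as well. The median log2 change of these 150 genes was 0.49, beside −0.06 over all genes tested.

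The ratio of the subunits within a library needs no scaling between libraries. There were 0.877 FTH1 counts per FTL count in the library labelled control (0.868 to 0.887) and 6.33 in the library labelled si-P53RRA (6.21 to 6.45), a 7.22-fold difference (7.06 to 7.37). FTH1 made up 46.7% of the ferritin subunit counts (46.5 to 47.0) in the first and 86.4% (86.1 to 86.6) in the second. Divided by the length of the longest annotated transcript, 1229 bases for FTH1 and 878 for FTL, the FTH1 to FTL ratio was 0.627 and 4.52, so the subunit with more RNA per length was FTL in one library and FTH1 in the other. The sum of the subunits changed little beside this: 8073 CPM and 7799 CPM with TMM factors, a ratio of 1.04 between the libraries. As a share of raw counts, without those factors, the sum was 0.845% and 0.745%, which is further apart. Both genes have many processed pseudogenes that can take or lend reads. The table named 2 of FTH1 (FTH1P3 with 1 and 1 counts, FTH1P18 with 1 and 0) and none of FTL, and adding them left the ratios at 0.877 and 6.33.

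**Figure D1:**
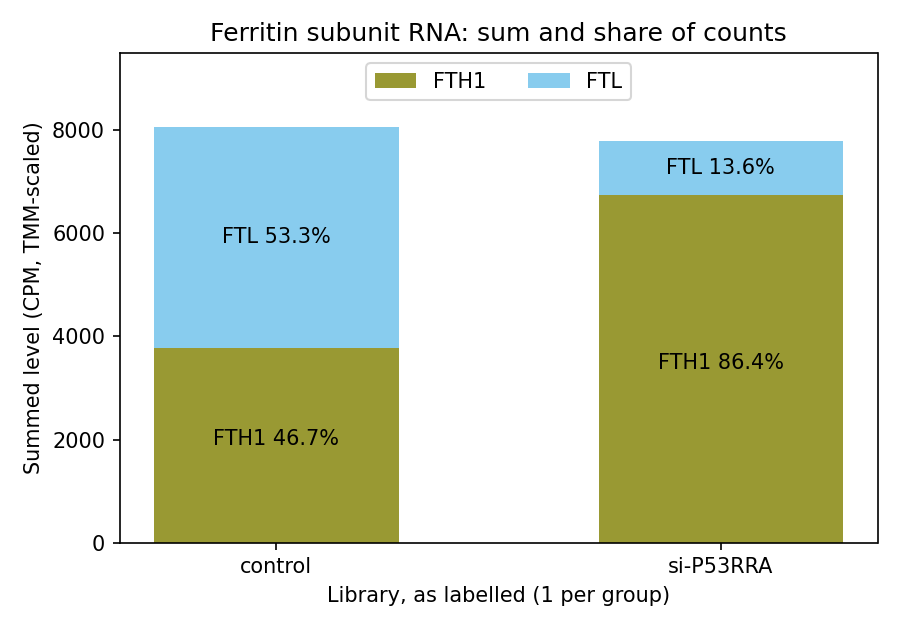
Summed level of the ferritin subunit genes (CPM, y axis) in each library (x axis, 1 library per group), with FTH1 below and FTL above in each bar and the share of counts written in. The bars are close in height, 8073 and 7799 CPM, while the FTH1 share is 46.7% in the library labelled control and 86.4% in the library labelled si-P53RRA.

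The uptake genes were all higher, by less than 2-fold. TFRC encodes the transferrin receptor, and had 3085 and 3551 counts, 184 CPM (177 to 190) and 311 CPM (301 to 322), 1.69-fold higher (1.61 to 1.78). STEAP3 encodes an endosomal reductase that turns ferric into ferrous iron, and had 1121 and 1167 counts, 66.8 CPM (63.0 to 70.8) and 102 CPM (96.5 to 108), 1.53-fold higher (1.41 to 1.66). SLC11A2 encodes the transporter DMT1, which moves ferrous iron out of the endosome, and had 449 and 448 counts, 26.8 CPM (24.3 to 29.4) and 39.3 CPM (35.7 to 43.1), 1.47-fold higher (1.28 to 1.68). The raw counts of SLC11A2 and STEAP3 were nearly the same in both libraries, so that their difference rests on the scaling between libraries. With total counts alone, without TMM factors, their log2 changes were 0.42 and 0.48. The log2 changes of TFRC, STEAP3 and SLC11A2 were 0.76, 0.61 and 0.54, and 24.6%, 28.5% and 30.5% of all genes tested were higher by as much. Corrected for the GC content and length of its transcript, the log2 change of TFRC was 1.03, past 2-fold.

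The ratios of the uptake genes to each other and to the ferritin genes were chosen after the values were seen. TFRC had 0.0487 counts per FTH1 count (0.0470 to 0.0505) in the library labelled control and 0.0462 (0.0447 to 0.0478) in the other, 0.948 times as many (0.903 to 0.996). The STEAP3 to TFRC ratio was 0.363 (0.339 to 0.389) and 0.329 (0.307 to 0.351), 0.904 times as high (0.822 to 0.995). The SLC11A2 to TFRC ratio was 0.146 (0.132 to 0.161) and 0.126 (0.114 to 0.139), 0.867 times as high (0.754 to 0.997). Each of these ratios was a little lower in the library labelled si-P53RRA, with a counting interval that ends just under 1. Corrected for GC content and length, TFRC was at 1.03 on the log2 scale while FTH1 and STEAP3 were at 0.49, so TFRC then stood above both. The TFRC to FTL ratio, in contrast, was 0.0428 (0.0412 to 0.0443) and 0.293 (0.282 to 0.304), a 6.84-fold difference (6.50 to 7.21).

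Both iron regulatory proteins had less RNA in the library labelled si-P53RRA. ACO1 encodes iron regulatory protein 1, which is the cytosolic aconitase when it carries an iron-sulfur cluster, and had 2451 and 680 counts, 146 CPM (140 to 152) and 59.6 CPM (55.2 to 64.3), 2.45-fold lower (2.25 to 2.67). IREB2 encodes iron regulatory protein 2, whose amount is set by its degradation, and had 804 and 265 counts, 47.9 CPM (44.7 to 51.3) and 23.2 CPM (20.5 to 26.2), 2.06-fold lower (1.79 to 2.38). The counting interval of IREB2 reaches below 2-fold, and its log2 change of −1.03 became −0.50 under the same correction. The ACO1 log2 change of −1.29 became −1.12. There were 3.05 ACO1 counts per IREB2 count (2.81 to 3.31) in the library labelled control and 2.57 (2.22 to 2.97) in the other. This ratio, too, was chosen after the values were seen.

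NCOA4, the receptor that delivers ferritin to autophagy so that its iron is released, had 3310 and 978 counts, 197 CPM (191 to 204) and 85.7 CPM (80.4 to 91.3). It was 2.30-fold lower (2.14 to 2.47), with a log2 change of −1.20. Set against the ferritin heavy chain, which it binds, NCOA4 had 0.0523 counts per FTH1 count (0.0505 to 0.0541) in the library labelled control. It had 0.0127 (0.0119 to 0.0136) in the library labelled si-P53RRA, a 4.11-fold difference (3.82 to 4.42). This ratio was also chosen after the values were seen. Corrected for GC content and length, NCOA4 was at −1.08 and FTH1 at 0.49 on the log2 scale. These are closer together than the −1.20 and 0.84 without the correction.

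The remaining genes were read in the library labelled control only. HFE, a relative of class I HLA proteins that binds the transferrin receptor, had 177 and 0 counts. Its level was 10.5 CPM (9.05 to 12.2) against a limit of 0.263 CPM, the level of 3 counts, and it was at least 40.1-fold lower against that limit. With the counting error of both libraries, for which 0 counts reach up to 0.323 CPM, the 95% interval ends at 32.3-fold lower. A difference this far down was found for 349 of the genes tested (2.58%). SLC40A1, which encodes ferroportin, the iron exporter, had 10 and 0 counts, 0.596 CPM (0.286 to 1.10) against the same limit, and was at least 2.27-fold lower against that limit, with a 95% interval that ends at 1.52-fold lower. Ferroportin RNA below that limit cannot be seen at this depth.

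**Figure D2:**
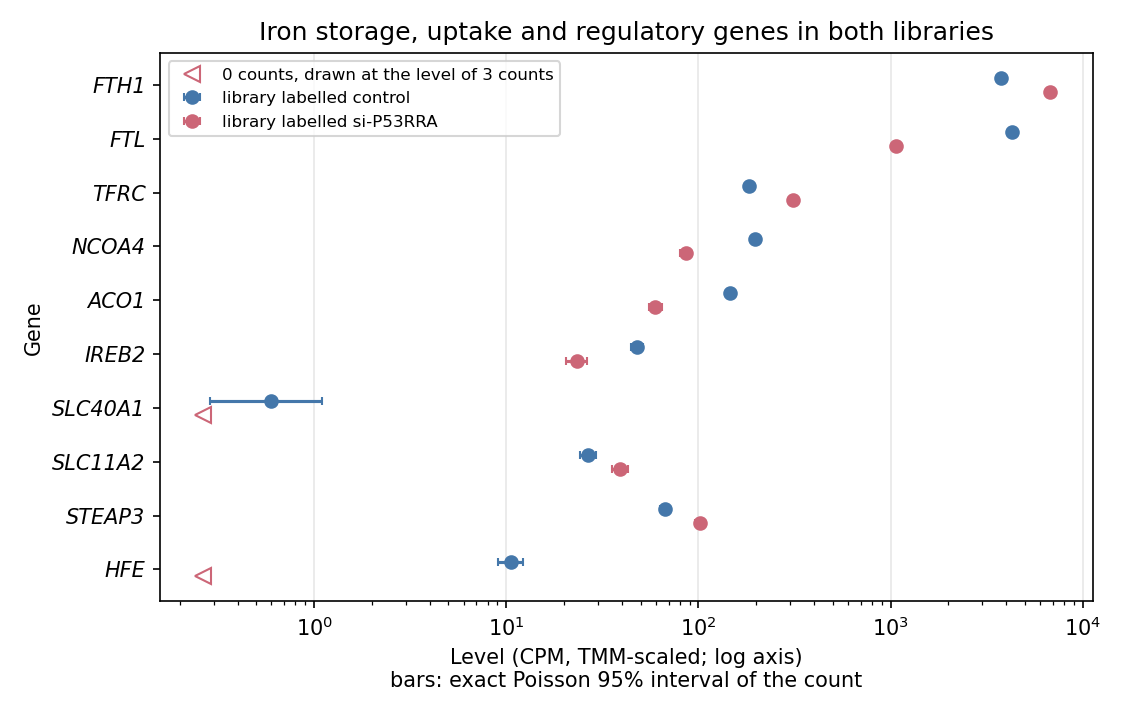
Level of each of the 10 genes (y axis) in CPM on a log axis (x axis) in the library labelled control (blue) and the library labelled si-P53RRA (red), with exact Poisson 95% intervals and open triangles for 0 counts at the level of 3 counts. FTH1, TFRC, SLC11A2 and STEAP3 lie further right in red, and FTL, NCOA4, ACO1, IREB2 and HFE further left.

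Of the 9 genes that reached 1 CPM, 5 (FTL, NCOA4, ACO1, IREB2 and HFE) were lower by 2-fold or more and 0 were higher by as much, beside 23.2% lower and 19.7% higher among all genes tested. Their median log2 change was −1.03, beside −0.06 over all genes tested. Corrected for GC content and length, 4 were lower and 1 higher, since IREB2 no longer reached 2-fold and TFRC did, and the median was −0.50. A count of 9 genes with 1 library per group is a description of these libraries. With 4-fold in place of 2-fold, 2 were lower (FTL and HFE), where 10.3% of all genes were. At 1.5-fold, 3 were higher (FTH1, TFRC and STEAP3), where 29.2% of all genes were. The same 5 were lower at that size, where 4424 of the 13532 genes tested were.

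**Figure D3:**
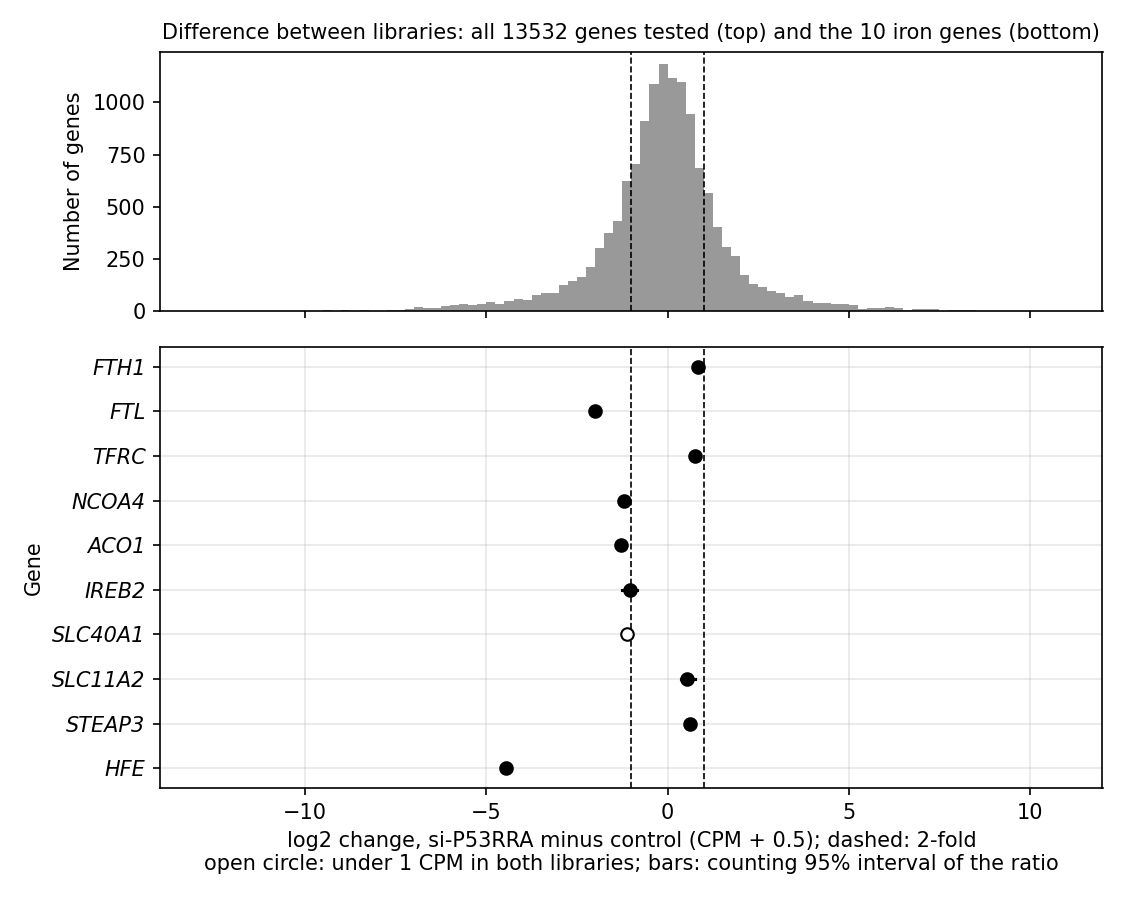
Top, number of genes (y axis) at each log2 change of si-P53RRA minus control (x axis) for the 13532 genes tested; bottom, the log2 change of each of the 10 genes (y axis), with counting intervals where both libraries had counts and an open circle for SLC40A1, which was under 1 CPM in both. FTL and HFE lie beyond the dashed 2-fold lines by the most, at −2.01 and −4.47, and FTH1, TFRC, STEAP3 and SLC11A2 lie between 0 and the upper line.

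Levels of different genes were compared per length, in CPM per kilobase of the longest annotated transcript, which may not be the form these cells make. In the library labelled control the order was FTL (4898), FTH1 (3070), NCOA4 (55.6), TFRC (36.0), ACO1 (19.6), STEAP3 (15.7), IREB2 (7.54), SLC11A2 (6.15), HFE (2.00) and SLC40A1 (0.173), and no neighbours in this order had overlapping counting intervals. In the library labelled si-P53RRA it was FTH1 (5480), FTL (1212), TFRC (60.9), NCOA4 (24.2), STEAP3 (24.0), SLC11A2 (9.03), ACO1 (7.98) and IREB2 (3.66), with HFE and SLC40A1 at 0. There the intervals of NCOA4 and STEAP3 overlapped, as did those of SLC11A2 and ACO1. TFRC stood below NCOA4 in the first library and above it in the second, and SLC11A2 stood below IREB2 in the first and above it in the second.

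Other genes of iron biology were compared in 7 lists. Together, 76 such genes reached 1 CPM in a library; 17 of them were higher by 2-fold or more, 12 were lower, and the median log2 change was 0.31. These are 22.4% higher and 15.8% lower, beside 19.7% and 23.2% of all genes tested, so the share that was higher was near that of all genes.

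Genes of iron uptake and reduction went both ways, with 3 of 9 higher, 3 lower and a median of −0.56. That median was 0.20 when at least 5 CPM was required, and again 0.20 under the correction for GC content and length. The correction leaves out MFI2, which had no transcript length, so the last median is over fewer genes. CYBRD1, a ferric reductase of the gut surface, had 2204 and 8 counts and was 187-fold lower (94.9 to 434). SCARA5, a scavenger receptor described as binding ferritin, had 0 and 480 counts and was at least 235-fold higher. TFR2, the second transferrin receptor, had 2 and 58 counts, 42.7-fold higher (11.3 to 361), and STEAP1, a relative of STEAP3 named for the prostate, had 115 and 249 counts, 3.18-fold higher (2.54 to 4.01). Among 8 genes of export and its systemic control, 3 were higher and 2 lower; their median was 0.15 (−0.16 with no filter on low values). NEO1, a co-receptor in hepcidin control, had 1086 and 0 counts and was at least 246-fold lower. The hepcidin inducer BMP6 had 2 and 87 counts, 64.0-fold higher (17.2 to 537). FLVCR2, a relative of the heme exporter FLVCR1, was 8.91-fold higher (6.68 to 12.1), and SMAD4, the shared mediator of BMP signals, 3.12-fold lower (2.75 to 3.55).

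Chaperones of iron and genes for turnover of the iron regulatory proteins were close to level, with 0 of 6 higher, 1 lower and a median of −0.01. The one that was lower was SKP1, a subunit of the ubiquitin ligase that degrades iron regulatory protein 2, at 2.38-fold (2.25 to 2.52). Its iron-sensing subunit FBXL5, named after its values were seen, had 524 and 356 counts, 1.00-fold (0.873 to 1.15). Of 9 genes linked to ferritin breakdown, 0 were higher and 2 were lower; their median was −0.32. RB1CC1, a scaffold of autophagy initiation, was 6.62-fold lower (5.51 to 8.03), and the cargo adaptor TAX1BP1, which acts with NCOA4, 2.22-fold lower (2.02 to 2.45).

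Of 4 other measured transcripts known to carry an iron-responsive element, 2 were higher and 1 was lower; their median was 1.02. CDC14A, a phosphatase, had 43 and 80 counts and was 2.74-fold higher (1.87 to 4.06). The hypoxia factor EPAS1 was 2.76-fold lower (2.51 to 3.03).

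Among 27 genes of iron-sulfur cluster assembly, 7 were higher by 2-fold or more (25.9%, beside 19.7% of all genes), 1 was lower (3.70%, beside 23.2%) and 19 were within 2-fold. The median was 0.80 beside −0.06 over all genes, and 0.54 under the correction for GC content. GLRX5, which passes clusters on in mitochondria, was 3.65-fold higher (3.38 to 3.94), and the assembly factor IBA57 3.21-fold higher (2.52 to 4.13). NFU1, a late-acting scaffold, was 2.81-fold lower (2.32 to 3.44). Of 13 genes of heme synthesis and breakdown, 2 were higher and 2 were lower; their median was 0.37. PPOX, of the heme synthesis pathway, was 3.08-fold higher (2.52 to 3.78) and the biliverdin reductase BLVRA 2.14-fold higher (1.90 to 2.41). The heme-sensing repressor BACH1 was 5.11-fold lower (4.16 to 6.31) and the heme oxygenase HMOX1, one of its targets, 4.23-fold lower (3.54 to 5.08).

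**Figure D4:**
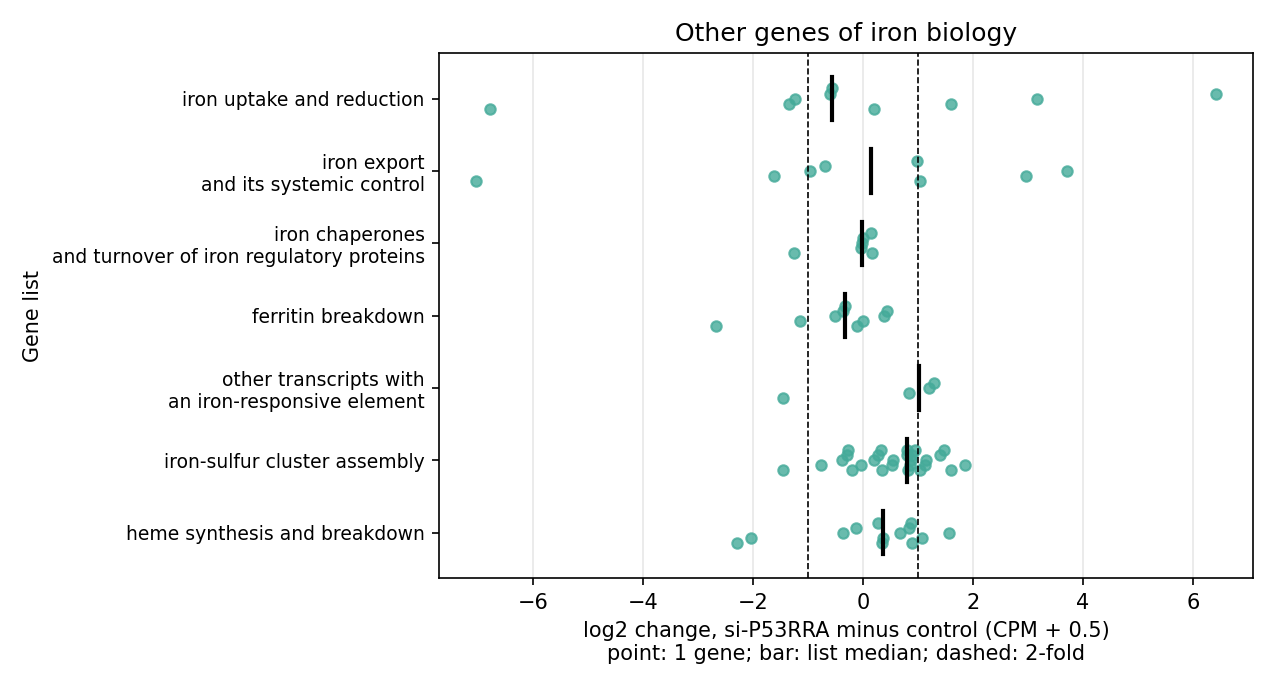
log2 change of si-P53RRA minus control (x axis) of each gene that reached 1 CPM in a library (points) in 7 lists of iron biology (y axis), with the list median as a bar and 2-fold as dashed lines. The iron-sulfur list has its median at 0.80, and the uptake list spreads from −6.78 (CYBRD1) to 6.41 (SCARA5).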

How the data were processed

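The values deposited by the authors are raw counts for each gene, as judged from whole numbers and unequal column totals. Reads were mapped to hg19, per the submitters' processing notes; the aligner, counting program, annotation, strand and gene filter were not given in the sources used here. The control is the column that names a negative control. The 10 genes and all lists were chosen with earlier results of these data known.

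Counts were scaled to CPM with TMM factors (edgeR 4.0.16 in R 4.3.3), 1.05 for the control library and 0.955 for the other. The log2 change was the difference of log2(CPM + 0.5), for genes that reached 1 CPM in a library; it understates changes of low genes. Folds are ratios of CPM without the pseudocount. Intervals are 95%: exact Poisson for levels, exact conditional binomial for ratios of 2 counts, and a normal approximation on the log scale for ratios of 4 counts. A fold against 0 counts is set by a floor of 3 counts, and the end of its 95% interval lies nearer to 1. Intervals and floors (3 counts, 0.179 and 0.263 CPM) cover counting error only, since the protocol names no molecular identifiers. With 1 library per group, no p-value was computed.

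All 10 genes were named, and in each list up to 4 genes, those furthest from 0 with a log2 change of 1 or more in size, plus LINC00472, HOXB13 and CTNNA1; some genes under this rule are not reported here. In the control and the other library, 1 and 2 of 5 macrophage genes in the table reached 1 CPM, 1 and 1 of 3 erythroid genes, 0 and 1 of 3 hepatocyte genes, and 3 and 2 of 4 prostate genes. Transcript lengths, GC content and sequences came from GENCODE 29 (12807 of the 13532 genes, 94.6%). The 25 rows named like calendar dates were kept. The procedure was also run on simulated counts in which few genes differed. These libraries differ far more widely, so that run does not show how well the scaling works here.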

Additional observations from a re-analysis of the deposited data

How the results depend on the processing

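No paired analysis was possible because each group had 1 library, and no replicate could be left out. None of the 10 genes changed the sign of its log2 change under total-count, upper-quartile or median-ratio (DESeq2 1.42.0) scaling, pseudocounts of 0.1 and 2.5 CPM, or a cubic correction for the GC content and length of transcripts, which was fitted on genes at 1 CPM and so leaves out SLC40A1. That correction left FTH1 at 0.49 (0.84 without it), FTL at −2.58, NCOA4 at −1.08, and put 1 gene, TFRC, past 2-fold higher. Total-count scaling moved the median of all genes from −0.06 to −0.18, and FTH1 to 0.70 and TFRC to 0.63. HFE, at 0 in 1 library, ranged from −6.73 to −2.38 with the pseudocount, so only its bound is of use. With a size of 1.5-fold, 3 of the 10 genes and 30 of the other iron genes were higher, and 5 and 16 were lower. Among all 13532 genes tested, 3955 (29.2%) were higher by this much and 4424 lower. With 4-fold, 2 of the 10 were lower, 4 of the other iron genes were higher and 5 lower, and 1129 and 1400 of all genes were higher and lower. Requiring the counting interval to exclude 1 changed no count of calls. Genes that reach 1 CPM and differ by 2-fold nearly always have such an interval, so this setting could show little. The depth limits SLC40A1 and HFE most, where 3 counts are 0.263 CPM in the library labelled si-P53RRA.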

Other observations

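The nearest measured genes on the chromosome were looked at for each of the 10 genes, 5 on each side in GENCODE 29 order, as a description chosen after the data were seen. Beside the counts that follow, 23.2% of all genes tested were at least 2-fold lower and 19.7% higher. Around NCOA4 on chromosome 10, 7 of 10 neighbours were at least 2-fold lower and 0 higher, with a median log2 change of −2.45, below the −1.20 of NCOA4 itself. Among them were the kinase gene MAPK8 (−5.93) and the zinc finger genes ZNF22 (−2.70) and ZNF488 (−2.72), while TIMM23 (0.08) was level. Around HFE on chromosome 6, 6 of 10 were lower and 0 higher, with a median of −1.13, and most of these were replication-dependent histone genes such as HIST1H1C (−1.52), a class of transcripts that poly(A) selection mostly misses. Around FTL on chromosome 19, 3 of 10 were lower and 1 higher, with a median of 0.16, and around FTH1 on chromosome 11, 2 were lower and 1 higher, with a median of −0.05. Single neighbours of FTL ranged from −4.52 (PLEKHA4) to 5.12 (PPFIA3). Around ACO1 and SLC40A1, 5 and 5 of 10 were lower and 2 and 1 higher, with medians of −0.81 and −0.57. Around SLC11A2, which was itself higher, 4 were lower and 1 higher, with a median of −0.59. Around IREB2, TFRC and STEAP3, 3, 1 and 2 were lower and 2, 1 and 2 higher. Their medians were −0.56, −0.40 and −0.19. Whether any of these runs reflects a difference in the chromosome was not tested.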
